A study of Mus musculus with 8 samples.

Results

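Fatty acid handling was examined in lung endothelial cells (ECs) of neonatal mice through 10 genes: Lpl, Cd36, Fabp4, Fabp5, Pparg, Angptl4, Slc27a3, Cpt1a, Plin2 and Pnpla2. They were chosen by symbol, for their known roles in the uptake, binding, storage and oxidation of fatty acids and in the control of these steps by PPARG. Earlier results of these data were known when they were chosen. All 10 were found among the 54532 genes of the deposited tables. The bulk RNA-seq data compared 4 libraries of wild-type (WT) pups reared in room air (normoxia, 21% O2) with 4 libraries of WT pups reared in hyperoxia (80% O2), in both cases from postnatal day 0 to 14. Hyperoxia of newborn mice is used as a model of bronchopulmonary dysplasia, in which vessels and alveoli develop poorly, and the comparison asks which transcripts of ECs differ after the exposure. Per the study's methods, cells bound by CD45 beads (leukocytes) were removed from a lung cell suspension and those bound by CD31 beads, an endothelial surface protein, were collected. The isolate is therefore enriched for ECs and not purely endothelial. Nothing in the labels says that the libraries came from separate pups, so the p-values measure only the spread between these libraries.

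ECs stand between blood and tissue and so decide how fatty acids pass. Circulating triglyceride is split by lipoprotein lipase (LPL), which GPIHBP1 carries to the capillary surface and ANGPTL4 inhibits. The freed fatty acids enter through CD36 and fatty acid transport proteins, are carried by FABP4 and FABP5 inside the cell, and are stored in lipid droplets, oxidized in mitochondria or passed on. PPARG, a nuclear receptor that binds fatty acids as ligands, drives many of these genes, and in capillaries of heart, muscle and fat its targets mark ECs that transport much lipid.

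Both groups carried endothelial transcripts, and the groups differed in capillary subtypes and in transcripts of other lung cells. Levels are in CPM, counts set to a common total after TMM normalization of library sizes. The summed CPM of 10 pan-endothelial markers ran from 15945 to 16868 in normoxia and from 15501 to 16332 in hyperoxia, with 3 of the 10 genes higher and 3 lower. Of these, Tek, the angiopoietin receptor, fell from 1182 to 682 CPM (log2 fold change -0.79, edgeR adjusted p = 6.35e-06), and Emcn, a sialomucin of the EC surface, rose from 262 to 350.1 CPM (0.42, adjusted p = 0.000159), both named after their values were seen. General capillary markers summed to 6794 to 7980 CPM in normoxia and 5035 to 5795 in hyperoxia, with 4 of 5 genes lower, whereas aerocyte markers summed to 1849 to 2214 and 3462 to 3900 CPM, with 6 of 6 higher. Alveolar type 2 markers summed to 253 to 357 CPM in normoxia and 814 to 2436 in hyperoxia (11 of 11 genes higher), and alveolar type 1 markers to 84.5 to 106 and 184 to 519 CPM (7 of 7 higher). In hyperoxia 3 both epithelial sums, and the fibroblast, mural and macrophage sums, were the lowest of the hyperoxia libraries. The same library had the lowest aerocyte sum of its group (3462 CPM against 3697 to 3900) and the highest general capillary sum (5795 CPM against 5035 to 5307). Macrophage markers summed to 192 to 363 CPM in normoxia and 250.3 to 546 in hyperoxia (4 of 9 tested genes higher, 1 lower), and fibroblast and lipofibroblast markers to 149 to 291 and 227 to 537 CPM (6 of 9 higher). By group mean, Lyz2 was the largest macrophage marker, at 77.3 and 225 CPM. Cd68 fell, and Ptprc, Adgre1, Mrc1 and Csf1r did not pass. Among hyperoxia libraries, Lyz2, Ptprc, Marco, Siglecf, Itgax and Csf1r were lowest in hyperoxia 3, and Cd68, Adgre1, Chil3 and Mrc1 in hyperoxia 2. Col3a1, Npnt, Col1a2 and Col1a1 were the largest of the fibroblast list, and its Tcf21, Pdgfra and Fgf10 did not pass. Mural markers ranged from 43.4 to 72.9 and from 94.9 to 157 CPM (6 of 8 tested higher), and platelet and erythroid markers from 126 to 211 and from 103 to 148 CPM (1 of 7 higher, 3 lower). The higher gene was the platelet gene Itga2b, and the 3 lower genes were the erythroid Hbb-bs, Hba-a1 and Alas2. All 6 adipocyte markers were under 1 CPM in every library, and Lep had no count at all. Fewer cells of a type and less RNA per cell cannot be told apart in bulk samples. Total counts ran from 16098086 to 18300730 per library.

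The 10 genes lay at very different levels. FPKM (fragments per kilobase, as deposited) divides each count by an annotated length of the gene and by its library's total. The order of the genes therefore depends on the lengths used, and other lengths were not tested. For Fabp4 the length, 4489 bases, was that of its whole annotated span. In GENCODE M21, Cpt1a measured 7642 bases instead of 4300 and Angptl4 3541 instead of 3286, while the other members had the same length. Cd36 was the most abundant on this scale. It was at 490 ± 22.5 FPKM under room air and 322 ± 12.3 FPKM under hyperoxia (SD, 4 libraries per group). Cpt1a (54.1 ± 1.59 and 53.6 ± 2.41 FPKM), Pnpla2 (41.5 ± 0.385 and 45.2 ± 3.39) and Plin2 (18.1 ± 2.26 and 18.9 ± 3.14) followed in the same order in both groups, and none of these 4 overlapped its neighbour in level. In normoxia, Lpl came next at 11.5 ± 0.920 FPKM, above Slc27a3 at 5.89 ± 0.263, Fabp4 at 4.88 ± 2.08 and Fabp5 at 4.43 ± 0.781, the last 3 of which overlapped their neighbours. In hyperoxia, Fabp5 stood at 8.17 ± 1.30 FPKM, Lpl at 8.01 ± 0.785, Fabp4 at 7.41 ± 4.46 and Slc27a3 at 5.22 ± 0.134, and each overlapped the next. Angptl4 (1.65 ± 0.415 and 2.70 ± 0.834 FPKM) and Pparg (0.395 ± 0.142 and 1.19 ± 0.375 FPKM) were the lowest in both groups, apart in normoxia and overlapping in hyperoxia. The mean level of Cd36 exceeded that of Pparg 1241-fold in normoxia and 272-fold in hyperoxia.

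**Figure D1:**
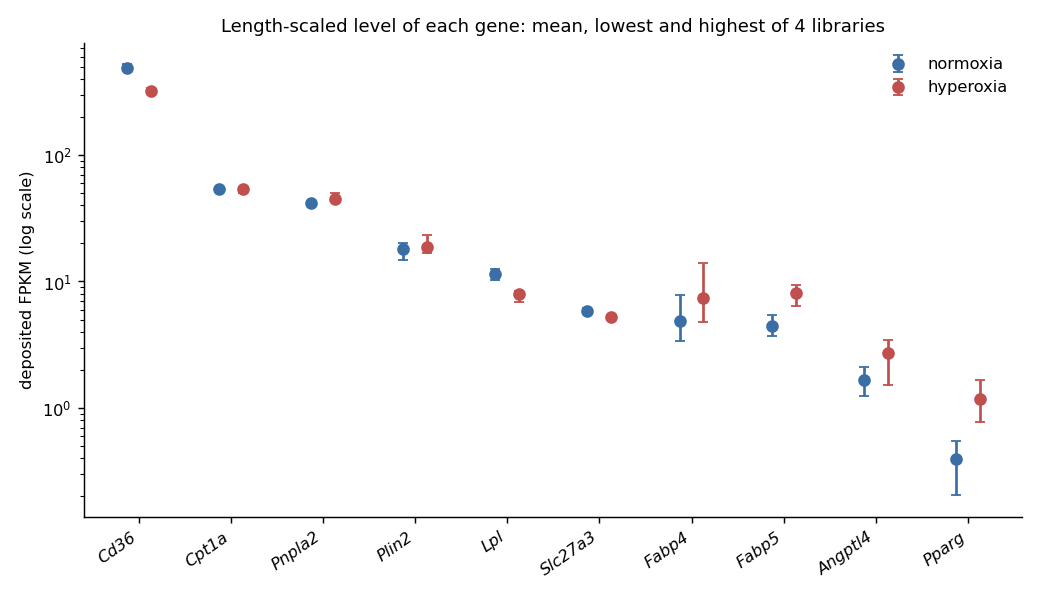
FPKM of the 10 fatty acid handling genes on a log axis. Each point is the mean of a group (normoxia or hyperoxia), with bars from its lowest to its highest library. Cd36 lies far above the others (490 FPKM on average in normoxia), and Pparg is the lowest (0.395 FPKM).

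Of the 10 genes, 3 rose in hyperoxia (Fabp5, Pparg and Angptl4), 2 fell (Cd36 and Lpl) and 5 did not pass the test. A gene is said to rise or fall where the Benjamini-Hochberg adjusted p of edgeR's quasi-likelihood test was under 0.05, among 15564 genes tested. Of all genes tested, 35.6% passed in either direction, 18.5% higher and 17.1% lower in hyperoxia. The 5 of 10 stands beside these shares as a description only, since the 10 genes were chosen with earlier results of these data known. Only Pparg among the 10 also changed at least 2-fold, as did 6.98% of all genes tested. The median log2 fold change (hyperoxia relative to normoxia) was 0.09 over the 10 genes and -0.004 over all genes. Groups did not overlap for 6 of the 10 (Lpl, Cd36, Fabp5, Pparg, Slc27a3 and Pnpla2), and for 35.4% of all genes tested.

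**Figure D2:**
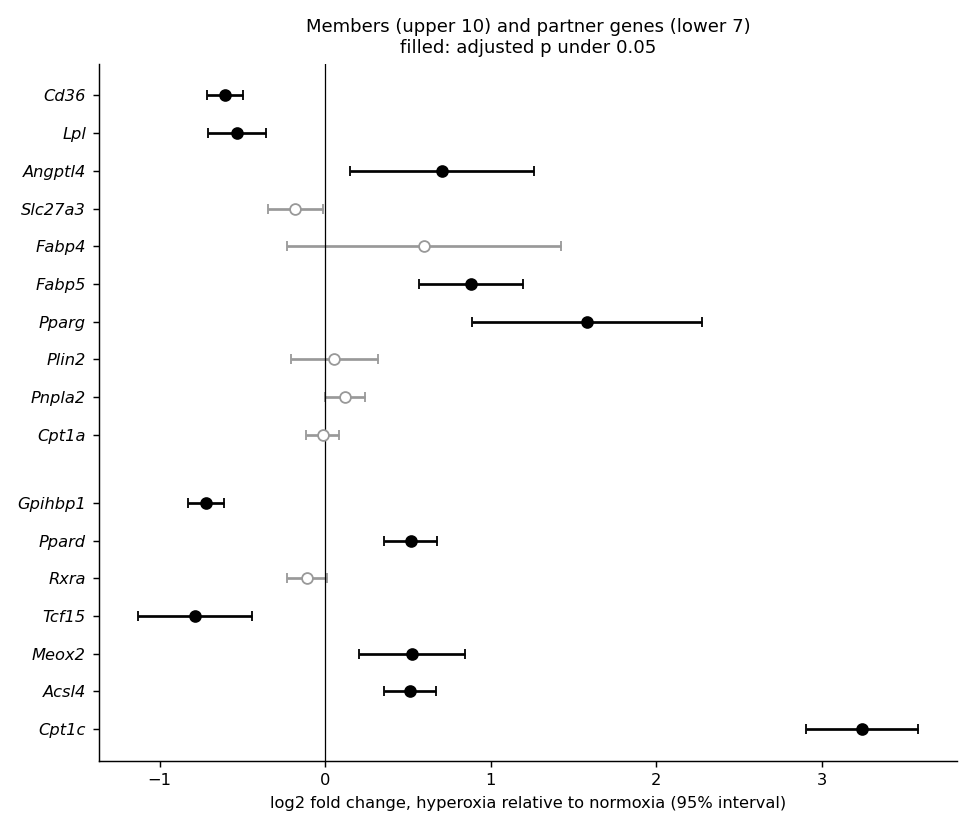
Log2 fold change of each of the 10 genes, hyperoxia relative to normoxia, with its 95% interval, and filled points where the adjusted p was under 0.05. The lower rows show Gpihbp1, Ppard, Rxra, Tcf15, Meox2, Acsl4 and Cpt1c in the same way. Among the 10, the intervals of Pparg, Fabp5 and Angptl4 lie above 0 and those of Cd36, Lpl and Slc27a3 below it. Slc27a3 did not pass after adjustment (edgeR adjusted p = 0.0858).

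Cd36 encodes the scavenger receptor that takes up long-chain fatty acids at the cell surface (ENSMUSG00000002944, minus strand, chr5:17781690-17888801, GRCm38). Normoxia 1 to 4 held 1753, 1706, 1748 and 1886 CPM of Cd36, and hyperoxia 1 to 4 held 1215, 1108, 1184 and 1148 CPM. Every hyperoxia library lay below every normoxia library, with the highest hyperoxia value well under the lowest normoxia value. The mean fell from 1773 ± 77.8 to 1164 ± 46.3 CPM (SD, n = 4), 1.52-fold lower, with a log2 fold change of -0.61 (SE 0.0492, edgeR quasi-likelihood adjusted p = 7.22e-06, 95% interval -0.72 to -0.50). At 19568 to 34136 counts per library, it was by far the best counted of the 10. Macrophages and platelets also carry CD36. The ratio of summed markers, hyperoxia over normoxia, was 1.60 for macrophages and 0.729 for platelets and erythroid cells, with groups that overlapped in both, and the part of these cells in the lower Cd36 was not tested.

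Lpl, the lipase itself (ENSMUSG00000015568, plus strand, chr8:68880491-68907448), fell as well. Its level was 126, 109.9, 120.4 and 132 CPM in normoxia 1 to 4 and 89.5, 71.8, 88.5 and 87.6 CPM in hyperoxia 1 to 4. The groups did not overlap, and hyperoxia 2 stood below the other 3 hyperoxia libraries. On average Lpl dropped 1.45-fold, from 122 ± 9.33 to 84.4 ± 8.41 CPM. The log2 fold change was -0.53 (SE 0.0789, edgeR quasi-likelihood adjusted p = 0.000446, 95% interval -0.71 to -0.36). Lpl carries short repeat-like stretches that are near-identical (at least 95% over at least 100 bases) to transcripts of 44 genes, the longest 184 bases or 1.76% of its length. Alveolar macrophages and lipofibroblasts also make LPL. The macrophage list and the joint list of fibroblasts and lipofibroblasts had sums with ratios of 1.60 and 2.06, and groups that overlapped in both. Lyz2 was the largest gene of the first list, and Col3a1, Npnt, Col1a2 and Col1a1 were the largest of the second. On the second list Col13a1 rose (3.31 to 6.07 CPM), but Tcf21, Pdgfra and Fgf10 did not pass. The part of alveolar macrophages and lipofibroblasts in the lower Lpl was not tested.

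Gpihbp1, which anchors LPL on capillary ECs and also belongs to the general capillary markers, showed the same direction with a larger size. It was at 455, 434, 484 and 484 CPM in normoxia and at 288, 284, 285 and 271 CPM in hyperoxia. The log2 fold change was -0.72 (SE 0.0487, edgeR quasi-likelihood adjusted p = 2.19e-06), 1.65-fold lower. The summed general capillary markers were lower in every hyperoxia library than in any normoxia library, with a ratio of means of 0.711, and their part in the lower Cd36, Lpl and Gpihbp1 was not tested.

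Angptl4, the secreted inhibitor of LPL and a classical PPAR target (ENSMUSG00000002289, minus strand, chr17:33773750-33781575), was the least certain of the genes that rose. Normoxia 1 to 4 held 6.92, 4.5, 6.32 and 4.14 CPM, and hyperoxia 1 to 4 held 9.88, 11.4, 4.98 and 9.43 CPM. Hyperoxia 3 lay within the normoxia range, while the other 3 hyperoxia libraries were above it. The mean went from 5.47 ± 1.36 to 8.92 ± 2.76 CPM, which is 0.71 on the log2 scale (SE 0.251, edgeR quasi-likelihood adjusted p = 0.049, 95% interval 0.15 to 1.26). Without hyperoxia 3 the log2 fold change was 0.90 (SE 0.187, adjusted p = 0.0042), a larger value that followed from leaving out the lowest hyperoxia library. The call was lost when any of 6 other single libraries was left out. Counts were low, from 75 to 201 per library.

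Slc27a3, a member of the fatty acid transport protein family with acyl-CoA synthetase activity (ENSMUSG00000027932, minus strand, chr3:90385239-90389938), was measured at 14.6, 15.9, 14.7 and 15.9 CPM in normoxia and 13.2, 13.9, 13.4 and 13.3 CPM in hyperoxia. The hyperoxia values were all lower and close together, but the difference was small and did not pass the test (log2 fold change -0.18, SE 0.0752, edgeR quasi-likelihood adjusted p = 0.0858, 95% interval -0.35 to -0.01).

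Fabp5 and Fabp4 encode fatty acid binding proteins that carry fatty acids through the cytosol and lie near each other on chromosome 3. Fabp5 (ENSMUSG00000027533, plus strand, chr3:10012548-10016607) was at 16.3, 13.3, 19.6 and 14.4 CPM in normoxia and at 30.2, 30.3, 22.8 and 34.0 CPM in hyperoxia. The groups did not overlap, and hyperoxia 3 was the nearest to normoxia. The mean rose from 15.9 ± 2.77 to 29.3 ± 4.71 CPM, 1.84-fold, with a log2 fold change of 0.88 (SE 0.141, edgeR quasi-likelihood adjusted p = 0.00075, 95% interval 0.57 to 1.19). Transcripts of 3 processed copies are near-identical to Fabp5 over up to 409 bases, and the best counted of them had a mean of 0.155 CPM. How reads that match several places were counted is not given in the sources used here, so a small share of Fabp5 counts may be misplaced.

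Fabp4 (ENSMUSG00000062515, minus strand, chr3:10204088-10208576) varied more than any other of the 10 relative to its mean in hyperoxia. Normoxia 1 to 4 held 22.1, 15.4, 35.4 and 15.5 CPM, and hyperoxia 1 to 4 held 21.8, 21.8, 26.6 and 63.5 CPM. Hyperoxia 1, 2 and 3 lay inside the normoxia range and hyperoxia 4 lay above it. Group means were 22.1 ± 9.39 and 33.4 ± 20.2 CPM, and the log2 fold change of 0.60 (SE 0.374, edgeR quasi-likelihood adjusted p = 0.242) had a 95% interval of -0.23 to 1.43, or 0.854-fold to 2.69-fold. Whether Fabp5 and Fabp4 differ in their response was not tested.

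Pparg, the receptor (ENSMUSG00000000440, plus strand, chr6:115360951-115490399), rose most by fold and was the lowest in level. It was at 1.16, 1.31, 1.62 and 0.608 CPM in normoxia and at 3.25, 3.57, 2.29 and 4.99 CPM in hyperoxia, from 11 to 29 counts and from 40 to 90 counts. The groups did not overlap, and hyperoxia 3 was again the lowest hyperoxia library. The mean rose from 1.18 ± 0.424 to 3.53 ± 1.12 CPM, 2.99-fold, with a log2 fold change of 1.58 (SE 0.315, edgeR quasi-likelihood adjusted p = 0.00276, 95% interval 0.89 to 2.28). Besides ECs, PPARG is known from alveolar macrophages, lipofibroblasts and alveolar type 2 cells, and from adipocytes, whose markers were all under 1 CPM here.

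Within the hyperoxia group, hyperoxia 3 lay at an extreme both for the genes that rose and for several marker sums. Fabp5, Pparg and Angptl4 were each lowest, among hyperoxia libraries, in hyperoxia 3, the library in which alveolar type 2 markers summed to 814 CPM against 2139.9 to 2436 CPM in the others. In that library aerocyte markers were also lowest, and general capillary markers highest, of the hyperoxia group. Among hyperoxia 1, 2 and 4, Fabp5 and Pparg were highest in hyperoxia 4. There alveolar type 2 markers were the lowest of these libraries, at 2139.9 CPM, and aerocyte markers the highest, at 3900 CPM. Without hyperoxia 3 the log2 fold changes were 0.98 for Fabp5 (SE 0.124, edgeR adjusted p = 0.00021) and 1.74 for Pparg (SE 0.301, adjusted p = 0.00149). As it was the lowest hyperoxia library for both, larger values followed from leaving it out. Those of Cd36, Lpl and Gpihbp1 were -0.62, -0.56 and -0.72. The part of these cell types in the rise of Fabp5, Pparg and Angptl4 was not tested.

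**Figure D3:**
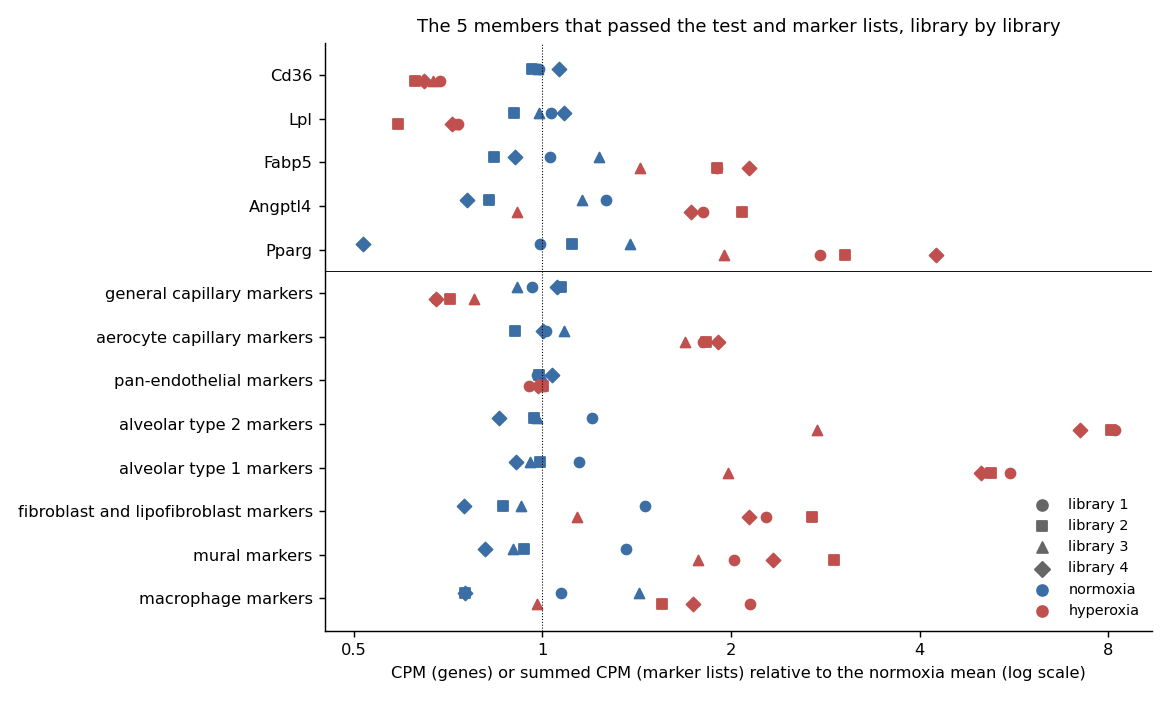
CPM of the 5 genes that passed the test (above the line) and summed CPM of cell type markers (below), in each library, relative to the normoxia mean on a log axis. Symbols give the library number. The hyperoxia 3 triangle is the lowest hyperoxia value of Fabp5, Angptl4, Pparg and of the aerocyte, epithelial, fibroblast, mural and macrophage sums, and the highest of the general capillary sum. Of single macrophage markers, Cd68, Adgre1, Chil3 and Mrc1 were lowest in hyperoxia 2.

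None of the 3 genes of storage and oxidation passed the test. Plin2 coats lipid droplets and is widely used as a gauge of lipid loading (ENSMUSG00000028494, minus strand, chr4:86648386-86670060). Its level was 70.9, 53.1, 67.6 and 64.8 CPM in normoxia and 83.2, 59.7, 59.4 and 64.2 CPM in hyperoxia. Hyperoxia 1 was above all others and the remaining libraries were mixed. The log2 fold change was 0.06 (SE 0.118, edgeR quasi-likelihood adjusted p = 0.747), with a 95% interval of -0.20 to 0.32, which spans 0.868-fold to 1.25-fold.

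Pnpla2 encodes adipose triglyceride lipase, which begins the breakdown of stored triglyceride (ENSMUSG00000025509, plus strand, chr7:141455198-141460743). It was at 125.2, 126.0, 126.3 and 127.7 CPM in normoxia, a very narrow spread, and at 152.6, 135, 133 and 128.7 CPM in hyperoxia. The groups were separated only by the step from 127.7 to 128.7 CPM. The log2 fold change was 0.12 (SE 0.0544, edgeR quasi-likelihood adjusted p = 0.111, 95% interval -0.00 to 0.24).

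Cpt1a, the carnitine palmitoyltransferase that admits long-chain fatty acids to mitochondria (ENSMUSG00000024900, plus strand, chr19:3323301-3385732), was at 234, 226, 238 and 239 CPM in normoxia and at 241, 238, 230.0 and 218 CPM in hyperoxia. The groups overlapped fully. The log2 fold change of -0.02 (SE 0.0458, edgeR quasi-likelihood adjusted p = 0.823) had the narrowest interval of the 10, -0.12 to 0.09, or 0.922-fold to 1.06-fold.

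**Figure D4:**
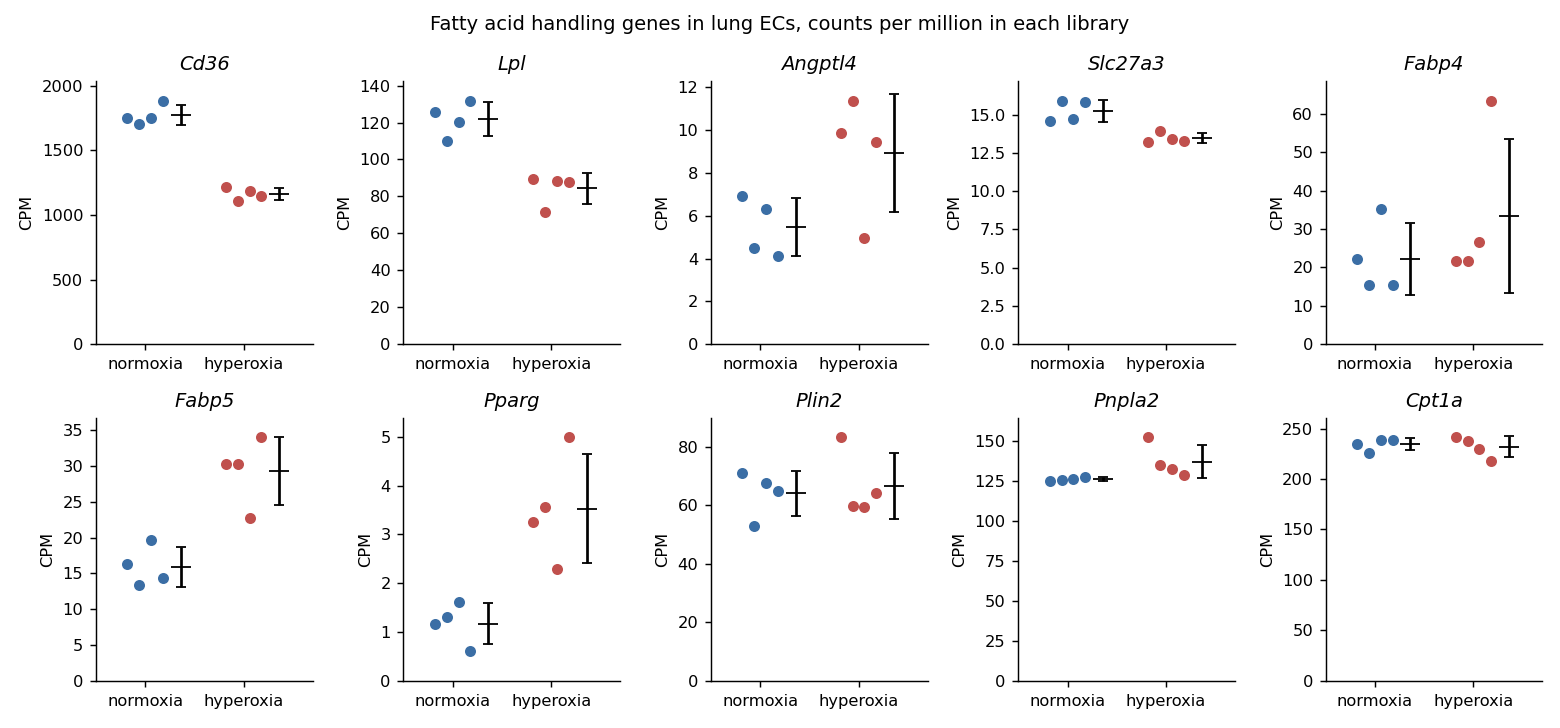
CPM of the 10 genes in every library (points), with the mean and SD of each group (bars), on linear axes from 0. Cd36 and Lpl are lower in all 4 hyperoxia libraries, Fabp5 and Pparg higher in all 4, and hyperoxia 4 stands alone in Fabp4 at 63.5 CPM.

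PPARs act as dimers with RXR on repeats of the hexamer AGGTCA, and promoter windows were therefore read for it. RefSeq promoters of GRCm38.p6 were matched by symbol for 6 of the 10 genes (Cd36, Pparg, Slc27a3, Cpt1a, Plin2 and Pnpla2), with 8 windows of 250 bases before a start, since Pparg had 3. The hexamer, on either strand, was in 5 of the 8 windows and in 14.0% of all 32851 promoter windows. The full direct repeat, 2 copies on one strand with any 1 base between them (DR1), was in 0 of the 8 and in 0.0335% of all. Cd36 had the hexamer beginning 228 bases before its start, Plin2 at 218, Cpt1a at 94, and Pparg at 28 and at 9 bases before its first and second start, while Slc27a3, Pnpla2 and the third Pparg start had none. Windows of Cd36 and Pparg, the genes with the largest fall and rise, are printed 5′ to 3′ in the direction of transcription. Of Pparg only the third window is printed, and its first and second windows, which hold the hexamer, are not. The printed pair is therefore no contrast between a gene that fell and a gene that rose. Both printed windows lie inside the annotated gene and hold no exon base of it, and capitals mark the hexamer, here as its reverse complement TGACCT.
Cd36, minus strand, chr5:17835897-17836146: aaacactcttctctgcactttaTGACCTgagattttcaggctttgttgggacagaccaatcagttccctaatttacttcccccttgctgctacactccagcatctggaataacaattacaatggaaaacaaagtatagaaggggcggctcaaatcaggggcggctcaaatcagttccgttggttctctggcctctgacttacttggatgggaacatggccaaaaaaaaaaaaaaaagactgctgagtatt
Pparg at the third start, plus strand, chr6:115421816-115422065: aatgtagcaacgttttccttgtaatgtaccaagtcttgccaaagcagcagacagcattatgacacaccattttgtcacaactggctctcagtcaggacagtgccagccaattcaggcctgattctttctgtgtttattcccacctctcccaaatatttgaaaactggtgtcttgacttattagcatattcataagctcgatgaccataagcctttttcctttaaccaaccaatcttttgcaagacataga
The Cd36 window carries the letters once and the printed Pparg window not at all. A match describes the letters of a window, not binding of a receptor. Of the genes with the hexamer, Cd36 fell, Pparg rose, and Plin2 and Cpt1a did not pass the test.

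Around the 10 genes, the vessel-wall partners of lipolysis and the lipoprotein receptors included genes that rose and genes that fell. Of 10 tested, 4 rose and 3 fell (median log2 fold change 0.29). Of all genes tested, 35.6% passed, 18.5% higher and 17.1% lower, with a median of -0.004. The counts of this and the following lists stand beside that background as a description only. The lists too were chosen with earlier results of these data known. Lrp1, a large endocytic receptor, rose from 28.5 ± 7.69 to 63.3 ± 18.4 CPM (log2 fold change 1.15, SE 0.238, edgeR adjusted p = 0.00341), although hyperoxia 3, at 36.1 CPM, barely exceeded the highest normoxia library at 35.8. Scarb1, the receptor for high-density lipoprotein, fell from 468 ± 12.2 to 362 ± 32.0 CPM (-0.37, SE 0.0609, adjusted p = 0.000905).

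Among genes of uptake, binding and activation, 4 of 11 tested rose and 1 fell (median 0.22), where 35.6% of all genes passed, and Acsl6, Fabp1, Fabp7, Slc27a2 and Slc27a5 were too low to test. Acsl4, which activates long-chain polyunsaturated fatty acids, rose from 46.0 ± 2.40 to 65.7 ± 6.22 CPM (log2 fold change 0.51, SE 0.0714, edgeR adjusted p = 0.000296). Dbi, the acyl-CoA binding protein, rose from 27.1 ± 3.66 to 36.1 ± 1.80 CPM (0.42, SE 0.0918, adjusted p = 0.00499). Cav1, the coat protein of caveolae, at which CD36 resides, fell from 1930.4 ± 74.8 to 1412 ± 78.9 CPM (-0.45, SE 0.0523, adjusted p = 8.74e-05), and its groups did not overlap.

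Of the PPAR partners and endothelial regulators, 4 of 11 tested rose and 4 fell (median -0.11), against 18.5% higher and 17.1% lower over all genes. Ppard, the PPAR that most cells express, rose from 28.9 ± 2.81 to 41.3 ± 1.80 CPM (log2 fold change 0.52, SE 0.0729, edgeR adjusted p = 0.000323). Ppara was too low to test, at 0.511 ± 0.179 CPM in normoxia and 0.425 ± 0.119 in hyperoxia, as were Ppargc1b and Rxrg. Rxra, the usual dimer partner, did not pass (99.2 ± 6.17 and 91.8 ± 3.94 CPM, -0.11, adjusted p = 0.147, 95% interval -0.23 to 0.01). The coactivator Ppargc1a fell from 3.43 ± 0.492 to 1.7 ± 0.135 CPM (-1.01, SE 0.178, adjusted p = 0.00132). Meox2 and Tcf15, whose proteins form a dimer that drives Cd36 and Lpl in heart ECs, moved in opposite directions, with Meox2 at 3.66 ± 0.372 and 5.26 ± 0.616 CPM (0.52, SE 0.145, adjusted p = 0.0164) and Tcf15 at 10.4 ± 0.366 and 6.01 ± 1.38 CPM (-0.79, SE 0.157, adjusted p = 0.0028). The corepressor Ncor1, the best counted of the list, had a log2 fold change of -0.05 (adjusted p = 0.464).

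Lipid droplet and triglyceride genes numbered 16 tested, of which 4 rose, 1 fell and 11 did not pass (median 0.11), a share that passed near the 35.6% of all genes. Lpin1, which makes diacylglycerol and also coactivates PPARs, rose from 17.4 ± 0.911 to 33.4 ± 1.27 CPM (log2 fold change 0.94, SE 0.063, edgeR adjusted p = 2.04e-06). Fitm2, which helps droplets to form, rose by 0.50 on the log2 scale (SE 0.126, adjusted p = 0.0101). Of the proteins that regulate adipose triglyceride lipase, the inhibitor Hilpda fell from 93.5 ± 1.21 to 78.8 ± 4.67 CPM (-0.25, SE 0.0491, adjusted p = 0.00271), and the activator Abhd5 rose from 29.7 ± 1.63 to 37.7 ± 1.93 CPM (0.34, SE 0.0613, adjusted p = 0.00149). A further inhibitor, G0s2, did not pass (3.07 ± 1.22 and 3.76 ± 1.89 CPM, 0.30, adjusted p = 0.577). Abhd5 and G0s2 were named after their values were seen. An antisense gene shares 16% of the Abhd5 exon bases, at a mean of 0.731 CPM. Mgll, which cleaves monoacylglycerol and was the most abundant of the list, did not pass (-0.08, adjusted p = 0.508). Cidea, Cidec, Fitm1, Plin1, Plin5 and Pnpla3 were too low to test.

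Of 21 mitochondrial beta-oxidation genes tested, 3 rose, 3 fell and 15 did not pass (median -0.08), and this share too was near the background of 35.6%. The gene with the largest change of the list was Cpt1c, a relative of Cpt1a known mainly from neurons and from stressed cells, where it lies in the endoplasmic reticulum. It was at 2.08, 1.59, 2.52 and 2.54 CPM in normoxia and at 18.9, 23.0, 18.4 and 22.7 CPM in hyperoxia, a 9.46-fold rise (log2 fold change 3.24, SE 0.154, edgeR adjusted p = 2.15e-07), and hyperoxia 3 did not stand apart. A gene on the opposite strand shares 6.53% of the Cpt1c exon bases, at a mean of 0.127 CPM. Acadl, the long-chain acyl-CoA dehydrogenase, rose from 93.2 ± 4.10 to 123 ± 4.09 CPM (0.40, SE 0.047, adjusted p = 9.17e-05). Slc25a20, the carrier that works next to CPT1A and was named after its values were seen, rose from 37.0 ± 3.87 to 45.8 ± 0.899 CPM (0.31, SE 0.0724, adjusted p = 0.00725). Acacb, whose product malonyl-CoA inhibits CPT1A, fell from 28.3 ± 3.31 to 19.0 ± 1.83 CPM (-0.57, SE 0.0973, adjusted p = 0.00105), and Decr1, needed for unsaturated fatty acids, fell from 28.2 ± 1.24 to 23.5 ± 1.26 CPM (-0.26, SE 0.0633, adjusted p = 0.00798). Hadha, the most abundant of the list, did not pass (-0.06, adjusted p = 0.28).

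Of 8 other PPAR target genes tested, 2 rose, none fell and 6 did not pass (median 0.31), against 18.5% higher and 17.1% lower over all genes. Vnn1, a pantetheinase, was at 0.429, 0.228, 0 and 0.166 CPM in normoxia and at 3.54, 3.57, 1.03 and 2.22 CPM in hyperoxia (log2 fold change 3.64, SE 0.599, edgeR adjusted p = 0.000873), again lowest in hyperoxia 3. Its counts were 7, 4, 0 and 3 in normoxia and 62, 63, 18 and 40 in hyperoxia. It was thus kept for testing through its hyperoxia libraries, and the size of its rise rests on few normoxia counts. Ucp2, the most abundant of the list, was at 453 ± 29.99 and 444 ± 17.2 CPM (-0.03, adjusted p = 0.711).

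**Figure D5:**
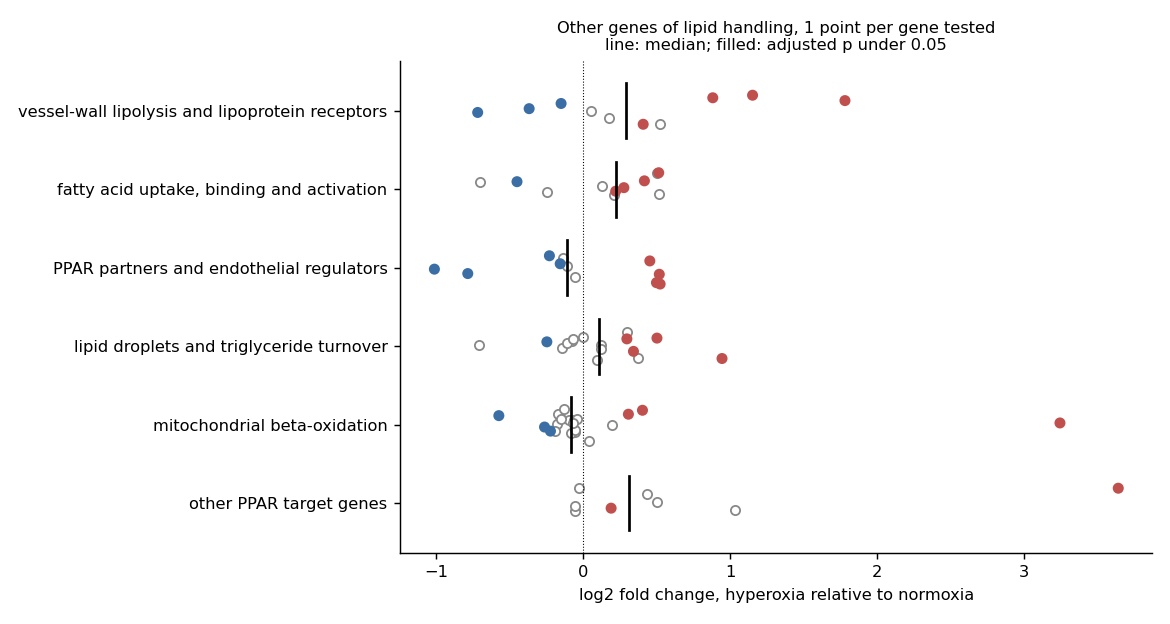
Log2 fold changes of the other genes of lipid handling, hyperoxia relative to normoxia, 1 point per tested gene in 6 lists, with the list median as a line and filled points where the adjusted p was under 0.05. Cpt1c (3.24) and Vnn1 (3.64) lie far to the right, and the median of the beta-oxidation genes is -0.08. Vnn1 had 0 to 7 counts per library in normoxia.

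Genes that followed Cd36 and Pparg most closely over the 8 libraries were sought by the Pearson correlation of log2 CPM, as a description, since the 8 points share library and group. For Pparg, the closest of 9077 protein-coding genes were Mpv17 (r = 0.988), Tln2 (0.981) and Trim11 (0.981), and 272 genes (2.997%) had r of at least 0.9. For Cd36 they were Pds5b (r = 0.996), Add1 (0.992) and Acsf2 (0.992), and 999 of 9076 genes (11.01%) had r of at least 0.9. Gpihbp1 ranked 10 for Cd36, with r = 0.990.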

How the data were processed

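ECs were isolated with CD31 beads after depletion of CD45-positive cells and sequenced as paired ends. The labels name an RNeasy kit and the methods TRIzol for RNA. The authors deposited whole-number counts per gene, and FPKM values that equal count over gene length and library total times a constant per library (0.974 to 1.01, within a relative deviation of 4e-08). The submitters' processing notes list HISAT2 2.0.5, featureCounts 1.5.0-p3 and mm10. Roles, strand and multiple matches are not given in the sources used here. Coordinates are GRCm38 (mm10) as the files give them. No member shares exon bases with another annotated gene.

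Counts were tested with edgeR 4.0.16 in R 4.3.3 (TMM, filterByExpr at default, group as the only term, quasi-likelihood test) over 15564 genes (99.8% or more of every library's counts), with Benjamini-Hochberg adjustment over all of them. Passed means adjusted p under 0.05. The 95% intervals follow from the F statistic. The study used DESeq2 on the counts. DESeq2 1.42.0, limma 3.58.1 on log2(FPKM + 1) and log2(FPKM + 0.1), RLE size factors, upper-quartile normalization, no filter, a 2-fold limit, the replicate number as a block and leaving out each library were alternatives. Scripts were tested on simulated data. Totals of 16098086 to 18300730 counts leave genes of few counts, such as Pparg, with wide intervals.

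The members and lists were chosen with earlier results of these data known. Named were all 10 members, Gpihbp1, Ppara, Ppard and Rxra, from each other list up to 2 genes with the highest and up to 2 with the lowest log2 fold change that passed at a mean of at least 1 CPM, its most abundant gene, and the 3 protein-coding genes (mean of at least 10 CPM) most correlated with the member of largest rise and of largest fall. Further names are marked as chosen after their values were seen. Some genes that this rule names are not reported here. Groups come from the sample titles. In 5 of the 8 libraries at least 100 counts each of Xist and of 4 Y-linked genes were found.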

Additional observations from a re-analysis of the deposited data

Results flagged for a closer look

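Each group of 4 libraries was searched for a value far from the other 3 (Dixon's test at the 95% level) over 40 groups, of which 3 were found, and chance finds about 1 in 20, or 2 of 40. Lpl in hyperoxia 2 was at 71.8 CPM, with the nearest hyperoxia library at 87.6. Fabp4 in hyperoxia 4 was at 63.5 CPM, with the nearest at 26.6. The alveolar type 1 marker sum in hyperoxia 3 was 184 CPM, with the nearest at 466, and that library was also the lowest of its group for Fabp5, Pparg and Angptl4.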

How the results depend on the processing

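Cd36, Lpl, Fabp5 and Pparg passed in all 15 alternatives, with log2 fold changes of -0.63 to -0.58, -0.58 to -0.46, 0.76 to 0.996 and 0.64 to 1.78 (the lowest for Pparg on log2(FPKM + 1), which understates low genes). Angptl4 passed in 5 of 15. In limma and edgeR it did not pass with upper-quartile normalization (0.69, adjusted p = 0.0562), log2(FPKM + 1) (0.46, adjusted p = 0.0804) or log2(FPKM + 0.1) (0.65, adjusted p = 0.0841), and leaving out 1 library gave 0.57 to 0.90 (adjusted p 0.0042 to 0.139), with the call kept only without normoxia 1 or hyperoxia 3. Slc27a3 passed in limma on log2(FPKM + 1) (-0.15, adjusted p = 0.0449) and log2(FPKM + 0.1) (-0.17, adjusted p = 0.0424). Fabp4 never passed, at 0.09 without hyperoxia 4 and 0.92 without normoxia 3. Cpt1a changed sign without hyperoxia 4 (0.0147, leave-one-out range -0.0358 to 0.0147), and Plin2 without normoxia 2 (-0.03) and without hyperoxia 1 (-0.0683, range -0.0683 to 0.11), neither passing. The causes were not tested. With the 2-fold limit, 1 of the 10 members was higher and 0 lower, and 1087 genes passed overall. Lower lipid droplet genes numbered 2 under both FPKM fits and 1 to 2 with a library left out (2 without hyperoxia 1), and lower beta-oxidation genes 6 with upper-quartile normalization. Replicate numbers did not pair the libraries (r of same-numbered libraries -0.140 to 0.119, 1 of 8 closest to its own number). With them as a block, 4792 genes passed and Angptl4 did not (0.68, adjusted p = 0.09).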

Other observations

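Normoxia 3 and hyperoxia 4 were the highest libraries of their groups for Fabp4 (35.4 and 63.5 CPM), Fabp5 (19.6 and 34.0 CPM) and Pparg (1.62 and 4.99 CPM), and also for Aqp7, a glycerol channel that PPARG induces. This was noticed after the values were seen. Aqp7 was too low to test and stood at 0.122, 0.171, 0.951 and 0.387 CPM in normoxia 1 to 4 and at 0.514, 0.227, 0.687 and 2.72 CPM in hyperoxia 1 to 4. The summed adipocyte markers were 0.499 CPM in hyperoxia 4, the highest of its group (the others 0.283 to 0.343), and 0.671 CPM in normoxia 3, second in its group to normoxia 1 at 0.735. Macrophage markers summed to 363 CPM in normoxia 3, the highest of its group, and to 444 CPM in hyperoxia 4, where hyperoxia 1 was higher at 546 CPM. Their part in these values was not tested.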
